A study of Mus musculus with 8 samples.

Results

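The regions described here are the intronic ERRα binding peaks that lie outside annotated repeats. They were the rows of 4 peak lists whose annotation begins with intron and whose detailed annotation names no repeat element. Together the lists held 42037 such peaks among 126927. The WT muscle list held 8659 of 25427 peaks, the ERRα3SA muscle list 16714 of 50647, the WT liver list 6914 of 21813 and the ERRα3SA liver list 9750 of 29040. ERRα was mapped by chromatin immunoprecipitation and sequencing (ChIP-seq) in gastrocnemius and soleus muscle or in liver of male C57BL/6N mice aged 2 to 3 months and killed at zeitgeber time 9. WT mice were compared with ERRα3SA mice, in which 3 phosphorylation sites in the amino-terminal domain of ERRα are mutated to give a phospho-deficient receptor. The WT mice were littermates. Each muscle library came from a pool of 5 mice and each liver library from a pool of 2 mice, and each combination of genotype and tissue had 1 ChIP library set against its own input DNA. With 1 library per group no difference between lists has a replicate check, no test was made, and the 95% Wilson intervals given below cover counting error only.

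ERRα is an orphan nuclear receptor that drives genes of mitochondrial energy metabolism together with the PGC-1 coactivators, in muscle and liver among other tissues. It binds DNA as a monomer or dimer at an element that extends the nuclear receptor core AGGTCA on its 5′ side, here read as TCAAGGTCA. Introns carry many of the enhancers of mammalian genes, and the first intron, next to the promoter, is often rich in regulatory DNA, so an intronic peak can lie in a gene it regulates or within the body of another gene.

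The peaks carried a caller score of 30 or more, and in muscle most were near that floor. A score under 50 was held by 83.4% of the intronic peaks of WT muscle and 83.7% of those of ERRα3SA muscle, against 59.8% in WT liver and 54.2% in ERRα3SA liver. Scores depend on the depth of each library, which is unknown here, so peaks were ranked only within a list and tied peaks were given the best rank. Peak lists hold no expression values, so neither the tissue nor the genotype could be checked against marker genes. Chromosome X, 6.28% of the assembled chromosomes, carried between 0.136% and 0.289% of all peaks of a list, and only 11, 14, 16 and 25 of the intronic peaks of WT muscle, ERRα3SA muscle, WT liver and ERRα3SA liver.

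The peaks with the strongest scores and the densest elements are shown first. The sequences are from the RefSeq assembly GRCm38.p6, which has the coordinates of mm10, on the forward strand. Each covers the central 300 bp of a peak, with every match to TCAAGGTCA or its reverse complement in capitals. The first lies in intron 22 of *Pld1*, the phospholipase D that makes phosphatidic acid, at chr3:28113908-28114207. The second lies in intron 2 of *Capn2*, a calcium-dependent protease, at chr1:182500811-182501110. The third lies in intron 6 of *Cep152*, a centriole assembly protein, at chr2:125617499-125617798, and the fourth in intron 7 of *Vash2*, a vasohibin of tubulin and vessel biology, at chr1:190956883-190957182. *Cep152* and *Vash2* were chosen after their number of elements was seen.
Pld1: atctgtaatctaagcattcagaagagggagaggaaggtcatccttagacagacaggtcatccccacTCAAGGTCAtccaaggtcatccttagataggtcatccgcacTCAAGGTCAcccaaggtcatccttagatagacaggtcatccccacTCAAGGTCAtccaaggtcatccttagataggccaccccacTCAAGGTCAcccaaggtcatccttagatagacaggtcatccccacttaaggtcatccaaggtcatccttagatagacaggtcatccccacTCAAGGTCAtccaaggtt
Capn2: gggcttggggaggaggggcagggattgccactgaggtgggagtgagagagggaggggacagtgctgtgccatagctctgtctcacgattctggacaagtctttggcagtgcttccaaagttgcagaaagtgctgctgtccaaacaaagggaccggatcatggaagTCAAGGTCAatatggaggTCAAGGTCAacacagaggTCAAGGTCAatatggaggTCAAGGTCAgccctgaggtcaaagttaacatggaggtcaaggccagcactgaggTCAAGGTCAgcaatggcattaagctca
Cep152: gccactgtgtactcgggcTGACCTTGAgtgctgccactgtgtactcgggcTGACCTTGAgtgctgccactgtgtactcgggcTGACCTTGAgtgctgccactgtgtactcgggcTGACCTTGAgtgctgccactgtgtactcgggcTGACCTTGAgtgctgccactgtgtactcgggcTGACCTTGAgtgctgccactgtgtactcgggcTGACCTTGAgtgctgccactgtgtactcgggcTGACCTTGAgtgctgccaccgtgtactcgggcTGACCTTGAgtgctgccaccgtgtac
Vash2: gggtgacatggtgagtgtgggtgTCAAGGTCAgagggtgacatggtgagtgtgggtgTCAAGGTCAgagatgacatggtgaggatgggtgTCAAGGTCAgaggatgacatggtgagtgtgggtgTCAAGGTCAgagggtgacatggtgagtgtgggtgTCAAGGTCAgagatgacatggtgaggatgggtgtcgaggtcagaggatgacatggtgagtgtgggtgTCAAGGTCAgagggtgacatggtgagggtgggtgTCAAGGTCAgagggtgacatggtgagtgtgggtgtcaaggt
The *Pld1* window held 5 matches on the forward strand at steps of 40 to 90 bp, in a sequence that RefSeq masks as repeat over 96 of its 300 bases. The *Capn2* window held 5 forward matches at steps of 18 to 54 bp, with 58 masked bases. The *Cep152* window held 9 matches on the reverse strand, each 32 bp from the next, and the *Vash2* window 7 forward matches at steps of 33 to 67 bp. No base of the *Cep152* and *Vash2* windows was masked. Their sequences nevertheless run as tandem copies of a near-identical unit, of 32 bp in *Cep152* and of 33 or 34 bp in *Vash2*. The *Pld1* and *Vash2* windows are those of the WT liver peaks, *Capn2* that of WT muscle and *Cep152* that of ERRα3SA muscle. Centred on the peaks of other lists, the *Cep152* window held 5 matches in WT liver and 9 in the other lists, and the *Vash2* window held 6 in WT muscle, 1 in ERRα3SA muscle and 6 in ERRα3SA liver. The lists name no repeat for these 4 peaks, so outside repeats means outside annotated repeats only. Whether copy number or read mapping at these sites affects their ranks was not tested.

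Most elements stood alone. The following stretches show the match nearest to the centre of an intronic peak with 10 bases to either side, read 5′ to 3′ on the strand of the element, in genes described further on.
Atp5b intron 1: aggcccaagcTCAAGGTCAcggggagaag
Idh3a intron 1: ggggacggcgTCAAGGTCAaggcggccag
Vwa8 intron 1: gagtcaaaggTCAAGGTCAagcacgagtc
Cabcoco1 intron 1: ccaaggtcacTCAAGGTCAAGGTCAgagc
Hadh intron 3: tgacctcgcaTCAAGGTCAgactgcttca
Gapdh intron 2: caaggagaccTCAAGGTCAgcgctcggac
Ryr1 intron 24: ctgagtcagaTCAAGGTCAgtggttactg
Foxo1 intron 1: cctacacaacTCAAGGTCAccgggactgt
Foxo3 intron 2: acaccgtgagTCAAGGTCAaagaagccgt
Ppara intron 2: tcacaaggttTCAAGGTCAcgccttcagc
Klf9 intron 1: agatgaccttTCAAGGTCAcgtccaacct
Nfil3 intron 1: cccaagaatgTCAAGGTCAtacaaggttc
Prdm16 intron 2: acgagaggtcTCAAGGTCAtccaagggca
Insr intron 2: gcacaaggctTCAAGGTCAtccagtgaga
The elements, without the flanks, lie at chr10:128083496-128083504, chr9:54586731-54586739, chr14:78849677-78849685, chr10:68541681-68541689, chr3:131246506-131246514, chr6:125165151-125165159, chr7:29097060-29097068, chr3:52299956-52299964, chr10:42207737-42207745, chr15:85771855-85771863, chr19:23147421-23147429, chr13:52970563-52970571, chr4:154488691-154488699 and chr8:3256319-3256327, in that order. In *Cabcoco1* a second match overlaps the first, so the capitals run on.

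Among annotation classes split by repeat content, intronic peaks outside repeats were the largest in all 4 lists, and they were more numerous in ERRα3SA than in WT mice in both tissues. In muscle there were 16714 in ERRα3SA and 8659 in WT, a ratio of 1.93 with an interval of 1.88 to 1.98. In liver there were 9750 and 6914, a ratio of 1.41 with an interval of 1.37 to 1.45. In muscle the ratio was close to that of all peaks, 1.99, above that of promoter peaks, 1.25, and below that of intronic peaks in repeats, 2.26. In liver it was above that of all peaks, 1.33, below that of promoter peaks, 1.56, and above that of intronic peaks in repeats, 1.26. Hence the order of intronic and promoter ratios was opposite in the 2 tissues. The members made up 34.1% of the WT muscle list, 33.0% of the ERRα3SA muscle list, 31.7% of the WT liver list and 33.6% of the ERRα3SA liver list. When the longer list of a tissue was cut to the length of the shorter by score, the ratio became 0.970 in muscle and 1.06 in liver, the first value on the other side of equality.

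**Figure D1:**
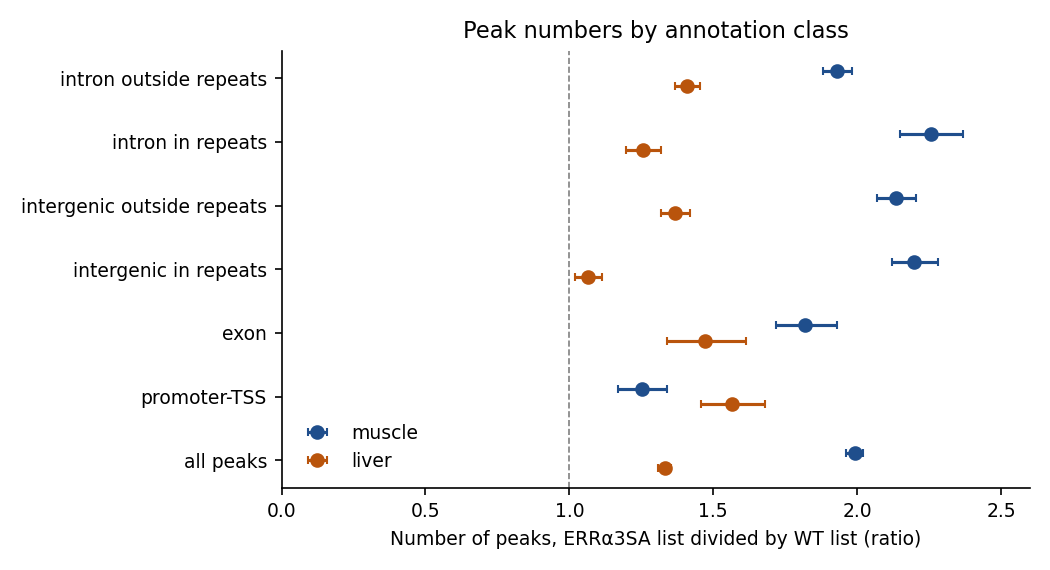
Number of peaks in the ERRα3SA list divided by the number in the WT list of the same tissue, for each annotation class; points are ratios, bars are 95% counting intervals and the dashed line marks equal numbers. Intronic peaks outside repeats sit at 1.93 in muscle and 1.41 in liver, and promoter peaks at 1.25 and 1.56.

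Repeats took a larger share of intronic peaks in liver than in muscle. Of all intronic peaks, 21.4% of the WT muscle list, 24.1% of the ERRα3SA muscle list, 30.03% of the WT liver list and 27.7% of the ERRα3SA liver list fell in repeats and were left out. The members also differed in base composition between tissues. The median GC content was 53.7% in WT muscle and 53.4% in ERRα3SA muscle, against 50.9% in WT liver and 51.1% in ERRα3SA liver. The median width of a member was alike in the lists, between 434 and 461 bp.

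The first intron held more peaks than its length. Intron 1 carried 37.0% of the members of WT muscle (interval 36.0 to 38.0%), 31.4% in ERRα3SA muscle (30.7 to 32.1%), 38.9% in WT liver (37.7 to 40.05%) and 39.6% in ERRα3SA liver (38.6 to 40.6%). In the RefSeq annotation, first introns hold 27.9% of the unmasked intronic bases of 22228 genes with an intron, taking the longest transcript of each gene. The interval of ERRα3SA muscle was below those of the other lists. Near the start site almost every member lay in intron 1: 92.8% of the WT muscle members up to 1 kb from a transcription start site (TSS) did so. Beyond 5 kb, the share of intron 1 was 24.3%, 22.2%, 26.7% and 26.8% in WT muscle, ERRα3SA muscle, WT liver and ERRα3SA liver. The liver intervals were 25.5 to 27.97% in WT and 25.8 to 27.9% in ERRα3SA. First introns hold 26.9%, 27.1%, 26.6% and 27.5% of all unmasked intronic bases of the hosts of these lists. Those bases include the ones within 5 kb of a TSS. The share of bases beyond 5 kb was not computed, so the peak shares beyond 5 kb have no like baseline here.

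The share in intron 1 rose with the score. In WT muscle it was 35.5% at scores of 30 to 39 and 52.6% at 200 and over, in ERRα3SA muscle 29.5% and 46.9%, in WT liver 34.8% and 50.5%, and in ERRα3SA liver 36.9% and 44.6%. CpG islands, the unmethylated CG-rich tracts at many promoters, were named for 7.46% of the WT muscle members, 3.73% of the ERRα3SA muscle members, 4.14% of the WT liver members and 4.77% of the ERRα3SA liver members. The counts were 646 and 624 in muscle, a similar number in lists of 8659 and 16714 members. Of the island members, between 86.5% and 91.4% of a list lay in intron 1.

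The typical member lay well away from a promoter. The median distance to the nearest TSS was 15526 bp for the WT muscle peaks and 18318 bp for those of ERRα3SA muscle. In liver it was 15240.5 bp for WT and 14018.5 bp for ERRα3SA. Intergenic peaks outside repeats were farther away, with medians of 32800, 34679, 30534 and 27585 bp. No member lay within 100 bp of a TSS, since the annotation calls such peaks promoter peaks, and the smallest distance was 101 bp in each list. Up to 1 kb from a TSS stood 12.2% of the members in WT muscle (11.5 to 12.9%), 7.20% in ERRα3SA muscle (6.82 to 7.60%), 9.91% in WT liver (9.23 to 10.6%) and 10.7% in ERRα3SA liver (10.1 to 11.3%). The number in this bin was 1054 in WT muscle and 1203 in ERRα3SA muscle, whereas beyond 50 kb it was 1828 and 3908. In the 5 to 20 kb bin the numbers were 2465 and 5094. In liver the bins up to 1 kb and beyond 50 kb were both larger in ERRα3SA, 1043 against 685 and 1915 against 1476.

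**Figure D2:**
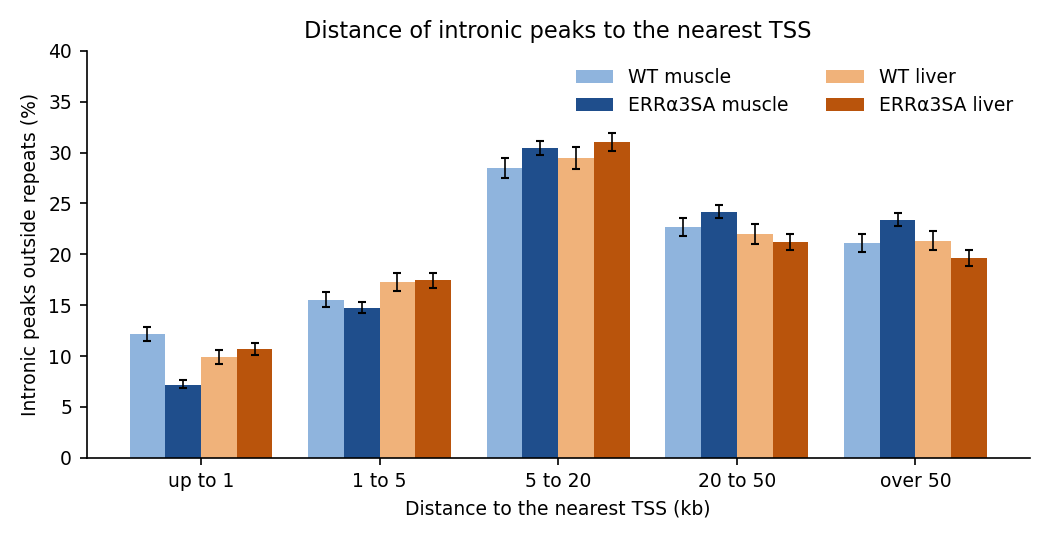
Share of the intronic peaks of each list by distance to the nearest TSS in kb; bars are percentages and error bars 95% Wilson intervals. WT muscle has 12.2% of its peaks up to 1 kb from a TSS and ERRα3SA muscle 7.20%, and the 5 to 20 kb bin is the largest in every list.

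The nearest TSS was not always that of the host, the gene whose intron holds the peak. The host had the nearest TSS for 71.2% of the members of WT muscle, 69.4% of ERRα3SA muscle, 74.5% of WT liver and 75.01% of ERRα3SA liver. Among the others the nearest gene was a non-coding RNA for 31.1% to 33.1% of a list. An example is the peak in intron 6, the last intron, of *Esrra*, the gene of ERRα itself, for which the lists name *Mir6990* as the nearest gene. Assignment by host and by nearest TSS thus gave different genes for 28.8%, 30.6%, 25.5% and 24.99% of the members in the 4 lists.

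Many host genes carried several peaks. The members fell in 4814 host genes in WT muscle, 6950 in ERRα3SA muscle, 4240 in WT liver and 5283 in ERRα3SA liver. Of 22228 genes with an intron in RefSeq, 21.5% hosted at least 1 member in WT muscle, 31.1% in ERRα3SA muscle, 19.0% in WT liver and 23.7% in ERRα3SA liver. At least 2 members were found in 1710, 3232, 1378 and 2025 hosts in the same order, and at least 5 in 267, 793, 168 and 332. Hosts with several peaks were long genes: in WT muscle the median unmasked intron length was 17.8 kb for hosts of 1 member, 46.3 kb for hosts of 2 to 4 and 131 kb for hosts of 5 or more. Neighbouring members of a host were a median of 14198 bp apart for WT and 10092.5 bp for ERRα3SA in muscle, 16443 and 12400.5 bp in liver, and between 22.7% and 29.6% of these gaps were 5 kb or less. In all 4 lists 1680 genes hosted a member and 513 hosted at least 2. With each muscle list cut to equal length, ERRα3SA muscle had 1707 hosts of 2 or more members, close to the 1710 of WT muscle.

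The hosts with the most peaks were in part the same in muscle and liver. *Tns1* and *Zmiz1* were among those with the most members in WT muscle and WT liver, and *Nav2* was so in ERRα3SA muscle and both liver lists. *Zfp423*, a zinc-finger factor of adipocyte commitment with 247 kb of unmasked intron, held 22 members in WT muscle and 20 in ERRα3SA muscle, but 1 in WT liver and 3 in ERRα3SA liver. *Agap1*, an Arf GTPase-activating protein, held 22 and 29 in muscle and 7 and 14 in liver. *Prdm16*, a regulator of brown fat identity, held 18 and 33 in muscle and 8 and 9 in liver. These 3 genes had more peaks in each muscle list than in either liver list, but they were chosen for their number in muscle. *Pitpnc1*, a phosphatidylinositol transfer protein, had more in liver than in muscle of the same genotype, with 4 and 12 in muscle and 12 and 19 in liver. It was chosen for its number in liver. *Tns1*, a tensin of focal adhesions, held 16, 26, 12 and 23 members in WT muscle, ERRα3SA muscle, WT liver and ERRα3SA liver.

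Some long genes held their largest number of peaks in ERRα3SA muscle. Those named here were chosen as hosts with the most members in that list, so a large number there follows from the choice. That list also held the most members, 16714 against 8659 in WT muscle, 6914 in WT liver and 9750 in ERRα3SA liver. *Camta1*, a calmodulin-binding transcription activator with 656 kb of unmasked intron, held 45 members in ERRα3SA muscle against 12, 5 and 13 in WT muscle, WT liver and ERRα3SA liver. *Sorcs2*, a Vps10-domain receptor, held 33 against 8, 1 and 5. *Grik4*, a kainate receptor subunit, held 32 against 6 in each of the other lists, and *Nav2*, a neuron navigator of the cytoskeleton, 32 against 14, 18 and 19. A partner in WT muscle, meaning a WT peak with its centre within 300 bp, was found for 4 of 45 in *Camta1*, 1 of 33 in *Sorcs2*, 0 of 32 in *Grik4* and 4 of 32 in *Nav2*, against 11.3% of all ERRα3SA muscle members and 10.1% of all peaks of that list. Among ERRα3SA muscle members with scores of 30 to 39 the share was 4.96%. The best peaks of *Camta1*, *Sorcs2* and *Grik4* in ERRα3SA muscle ranked 2166, 4392 and 3101 of 50647, outside the top 1%. *Nav2* differed in that its intron 6 peak ranked 28 in ERRα3SA muscle and 19 in WT muscle.

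Others were spread over all 4 lists. *Zmiz1*, a transcriptional coregulator related to the PIAS family, held 18, 26, 12 and 14 members in the order WT muscle, ERRα3SA muscle, WT liver and ERRα3SA liver. *Septin9*, a cytoskeletal GTPase, held 12, 11, 7 and 17. *Prkag2*, a regulatory subunit of AMP-activated kinase, held 8, 16, 12 and 15, and its best peak, in intron 3 within chr5:24958660-24959906 in all 4 lists, stood in the top 1.01%, 0.421%, 0.289% and 0.179%. *Zfp982* held 11, 14, 18 and 13 in 37.5 kb of unmasked intron. It belongs to a cluster of near-identical zinc-finger genes on chromosome 4. Only reads with a mapping quality over 20 were kept, and mapping at this locus was not tested, so its number is uncertain.

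**Figure D3:**
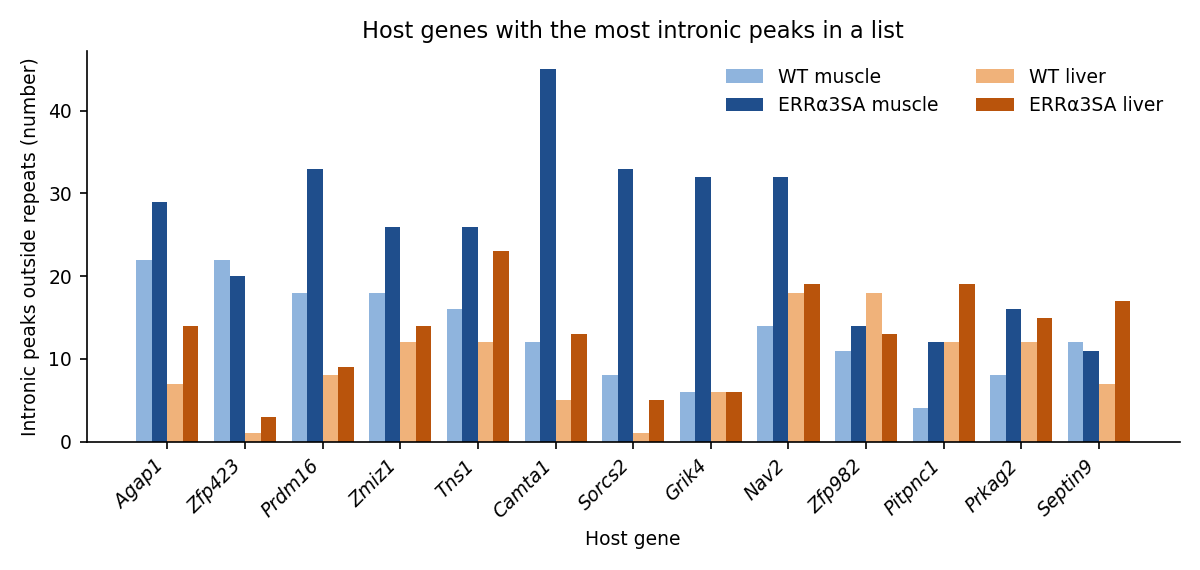
Number of intronic peaks outside repeats in each list (bars) for host genes among those with the most such peaks in at least 1 list. *Camta1*, *Sorcs2* and *Grik4* stand at 45, 33 and 32 peaks in ERRα3SA muscle and at 12, 8 and 6 in WT muscle, while *Zfp423* has 22 and 20.

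Intronic peaks reached high ranks slightly more often than all peaks in 3 lists, and within counting error of them in ERRα3SA liver. The top 10% of a list held 11.5% of the members in WT muscle, 11.2% in ERRα3SA muscle, 11.4% in WT liver and 10.7% in ERRα3SA liver, against 10.6%, 10.3%, 10.1% and 10.3% of all peaks. The interval of ERRα3SA liver (10.1 to 11.3%) covered the share of all its peaks, and in the top 1% of that list stood 0.933% of the members and 0.999% of all peaks. Promoter peaks reached the top 10% more often, with 21.5%, 23.2%, 17.8% and 16.1%. Some of the highest ranks of each list nevertheless belonged to introns. *Pld1* intron 22 ranked 2, 2, 2 and 1 in WT muscle, ERRα3SA muscle, WT liver and ERRα3SA liver, and *Capn2* intron 2 ranked 1, 1, 3 and 2. *Aldoa* intron 1, of the muscle aldolase of glycolysis, ranked 6, 7, 11 and 10. The called *Capn2* intervals were broad, and the centres shifted: the central 300 bp held 5 and 7 elements in WT muscle and ERRα3SA liver and 0 in ERRα3SA muscle and WT liver.

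Ranks of other high-scoring peaks varied between the lists. *Esrra* intron 6 ranked 18 in WT muscle and 88 in ERRα3SA muscle, and neither liver list had an intronic member there. *Hcfc1*, a chromatin-associated cell cycle factor on chromosome X, had members ranked 17 in WT muscle (intron 7) and 288 in ERRα3SA muscle (intron 2) and none in liver. *Camk1d*, a calcium/calmodulin-dependent kinase, had members ranked 22 in WT liver and 6 in ERRα3SA liver at the same site of intron 2, while its best muscle ranks were 16894 and 5574. *Cxadr*, a cell adhesion molecule of tight junctions, ranked 17 and 12 in liver and 600 and 776 in muscle, at overlapping positions of intron 1. These were the top 0.0779% and 0.0413% of the WT and ERRα3SA liver lists and the top 2.36% and 1.53% of the muscle lists. *Clybl*, a mitochondrial enzyme of the citrate lyase type, ranked 30, 25 and 21 in intron 1 in WT muscle, ERRα3SA muscle and WT liver, and its only ERRα3SA liver member, in intron 2, ranked 23394. A peak that falls a few bases closer to the start site is annotated as promoter or exon and then leaves the group.

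Most intronic peaks of a list had no partner in the other genotype. In muscle 1884 of 8659 WT members had an ERRα3SA partner, 21.8% (20.9 to 22.6%), and 1892 of 16714 ERRα3SA members had a WT partner, 11.3% (10.8 to 11.8%). In liver the shares were 46.9% of the WT members (45.7 to 48.0%) and 33.1% of the ERRα3SA members (32.2 to 34.1%). Over all peaks they were 20.2% and 10.1% in muscle and 42.9% and 32.2% in liver, slightly below the members in each direction. Partners counted whatever their annotation, and between 82.1% and 86.0% were members too. Between tissues 12.1% of the WT muscle members had a WT liver partner and 12.5% of the ERRα3SA muscle members an ERRα3SA liver partner, against 11.7% and 11.5% of all peaks. Read from liver, 15.8% and 21.8% of the members had a partner in muscle of the same genotype, against 13.6% and 20.1% of all peaks.

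Partners were found more often at higher scores. Among ERRα3SA muscle members 4.96% had a WT partner at scores of 30 to 39, 16.2% at 50 to 69 and 83.2% at 200 and over. Among ERRα3SA liver members these shares were 7.93%, 31.3% and 89.1%. Over all peaks, whatever their annotation, the same scores gave 4.77%, 14.6% and 79.2% in ERRα3SA muscle and 7.58%, 30.996% and 88.6% in ERRα3SA liver, close to the shares of the members. Among WT members at 200 and over, 83.4% in muscle and 89.2% in liver had an ERRα3SA partner. The peaks held by a single list were seldom of high rank: 3.72% of such members in WT muscle, 3.94% in ERRα3SA muscle, 1.32% in WT liver and 1.06% in ERRα3SA liver stood in the top 10% of their list. Between tissues the shares at 200 and over were lower, 64.0% and 68.6% for muscle members and 50.9% and 54.6% for liver members.

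**Figure D4:**
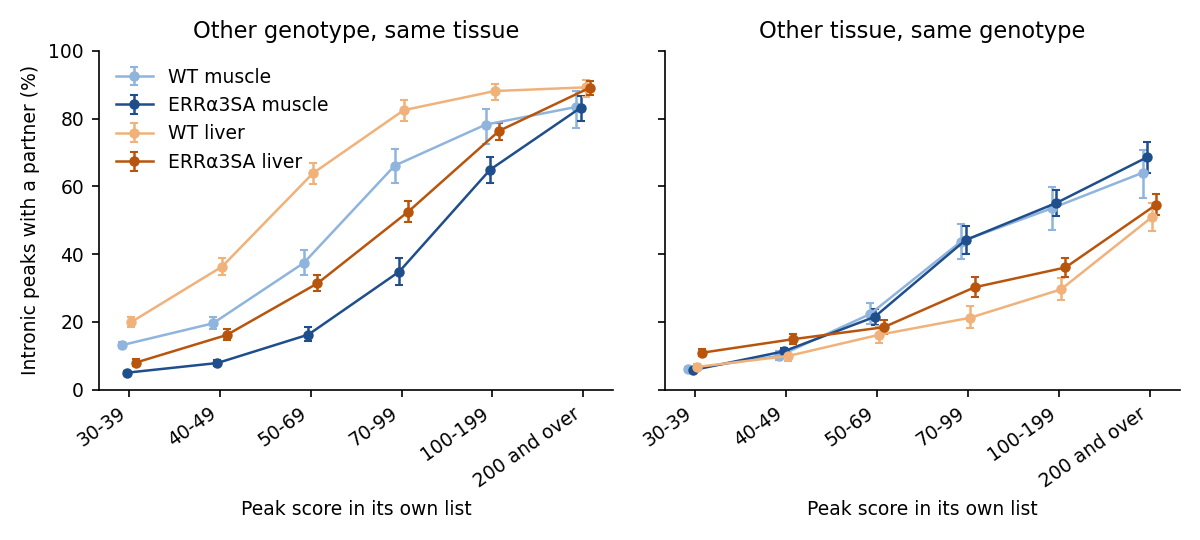
Share of intronic peaks with a partner within 300 bp, by peak score in the list of the peak; the left panel looks in the other genotype of the same tissue and the right panel in the other tissue of the same genotype, and bars are 95% Wilson intervals. In the left panel the shares climb from between 4.96% and 19.9% at 30 to 39 to between 83.2% and 89.2% at 200 and over.

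Sites found in all 4 lists were few. Partners in each of the other lists were present for 592 members in WT muscle (6.84%), 603 in ERRα3SA muscle (3.61%), 646 in WT liver (9.34%) and 623 in ERRα3SA liver (6.39%). Over all peaks these shares were 6.48%, 3.30%, 7.67% and 5.79%. In contrast 6158, 13251, 3102 and 5378 members stood in 1 list alone, which is 71.1%, 79.3%, 44.9% and 55.2% of them, against 73.1%, 80.7%, 48.998% and 57.2% of all peaks. Members of all 4 lists were close to genes more often than those of 1 list: in WT liver 69.04% against 51.1% lay within 20 kb of a TSS, and 53.3% against 33.4% in intron 1. For 437 WT muscle members, in 396 host genes, the partner in each other list was itself an intronic peak outside repeats. Of these 50.1% lay in intron 1 and 20.6% held the element in the WT muscle window, and the median distance to a TSS was 10703 bp.

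The sites ranking best over the 4 lists included mitochondrial and lipid genes. After *Pld1* came *Afg1l*, a mitochondrial ATPase of the AAA family, with ranks 22, 23, 25 and 24 at chr10:42462193-42464004 in intron 1, 15526 bp from the TSS. *Klhl24*, a substrate adaptor of a ubiquitin ligase, ranked 37, 22, 69 and 43 in intron 1. *Cert1*, which carries ceramide from the endoplasmic reticulum to the Golgi, ranked 90, 97, 40 and 39 in intron 3. *Atp5b*, the β subunit of ATP synthase, ranked 53, 34, 75 and 99 in intron 1, with the element in the central window of each list. *Vwa8*, a mitochondrial ATPase, and *Cabcoco1*, a calcium-binding ciliary protein, ranked between 63 and 131 and between 25 and 180. The site in intron 2 of the uncharacterised *Gm9961*, with ranks 23, 29, 89 and 91, lay 399 to 516 bp from the start of *Cpped1*, a phosphatase, which is its nearest gene. Each of these sites stood in the top 1% of all 4 lists.

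The ERRα element was found at a minority of intronic peaks, more often in liver. TCAAGGTCA stood on either strand in the central 300 bp of 372 WT muscle members, 4.30% (3.89 to 4.74%), of 663 ERRα3SA muscle members, 3.97% (3.68 to 4.27%), of 866 WT liver members, 12.5% (11.8 to 13.3%), and of 1219 ERRα3SA liver members, 12.5% (11.9 to 13.2%). Over all peaks the shares were 3.92%, 4.28%, 14.6% and 15.2%. Windows of the same length 5 kb to either side held it in 0.901%, 0.885%, 1.01% and 0.974%, so the centres exceeded their surroundings 4.77-fold, 4.48-fold, 12.4-fold and 12.8-fold. The intervals of the genotypes overlapped in either tissue, and those of the tissues did not in either genotype. At scores of at least 100 liver was also above muscle in both genotypes, with intervals that overlapped. Overlapping intervals do not show equal shares, and the difference was not tested. Such scores were held by 4.83% and 5.88% of the WT and ERRα3SA muscle members and by 19.1% and 21.1% of the liver members. At these scores the WT shares were 17.2% (13.9 to 21.1%) in muscle and 23.0% (20.8 to 25.3%) in liver. The ERRα3SA shares were 16.7% (14.5 to 19.1%) and 19.95% (18.3 to 21.7%). Intronic peaks within repeats, which are not members, held it more often, in 7.48%, 8.40%, 26.0% and 28.1%.

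The element was more frequent at shared sites than at sites of 1 list, and shared sites also had higher scores. In WT muscle 3.72% of members in 1 list and 56.6% of those in all 4 lists stood in the top 10%. There the element was held by 2.32% of members at scores of 30 to 39 and 17.7% at 200 and over. Sharing was not compared at like scores, so it cannot be told apart from score. Members found in 1 list held it in 1.09% in WT muscle, close to the surroundings, 1.59% in ERRα3SA muscle, 5.29% in WT liver and 7.75% in ERRα3SA liver. Members with a partner in all 4 lists held it in 20.8%, 20.7%, 22.0% and 22.2%, with intervals that overlapped. At sites of 1 or 2 lists the intervals of muscle and liver did not overlap within a genotype, and at sites of 3 or 4 lists they did. In muscle, members shared with liver but not with the other genotype held it more often than members shared by the 2 muscle lists alone: 13.0% (10.5 to 15.8%) against 5.56% (4.28 to 7.20%) in WT, and 15.02% (13.3 to 16.9%) against 5.41% (4.14 to 7.05%) in ERRα3SA. In liver the order was the reverse, with 10.8% (8.55 to 13.7%) against 17.3% (15.6 to 19.2%) in WT and 12.3% (10.5 to 14.3%) against 18.1% (16.4 to 19.996%) in ERRα3SA.

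**Figure D5:**
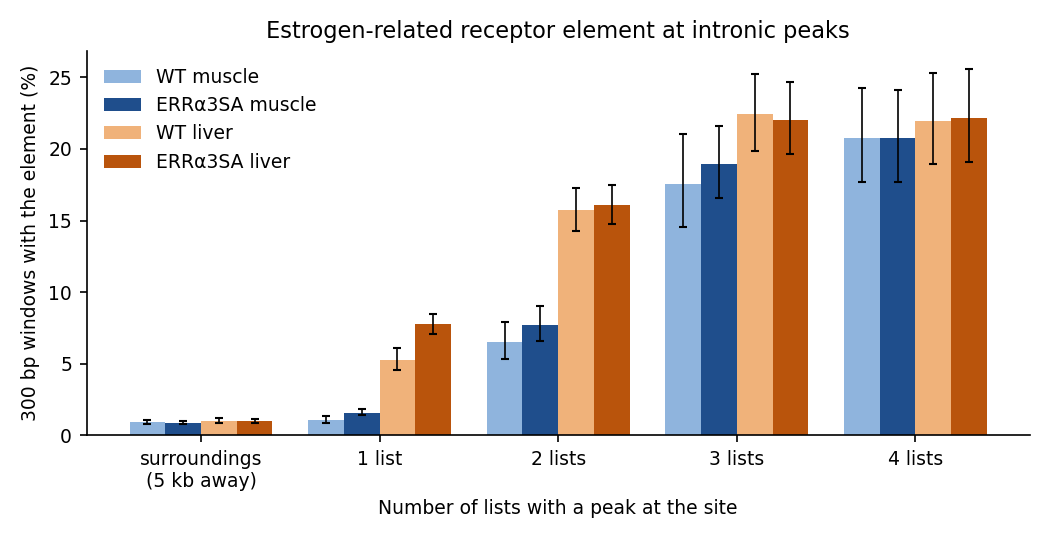
Share of 300 bp windows with the element TCAAGGTCA on either strand, for windows 5 kb from intronic peaks and for intronic peaks at sites held by 1 to 4 lists; error bars are 95% Wilson intervals. The surroundings stand at about 1% (0.885 to 1.01%), sites of 1 list at 1.09 to 7.75% and sites of all 4 lists at 20.7 to 22.2%.

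The element was not concentrated at the middle of the peaks. The match nearest the centre lay a median of 76, 70, 72 and 68 bp from it in WT muscle, ERRα3SA muscle, WT liver and ERRα3SA liver, and 31.5% to 36.0% of matches lay within 50 bp. Searching the whole called interval raised the shares to 7.03%, 7.24%, 18.4% and 17.99%. The element lay on the coding strand of the host in 42.8% (37.9 to 47.9%), 47.8%, 48.8% and 45.9% of cases. It was less frequent near start sites in each list. Up to 1 kb from a TSS it was held by 2.09%, 2.83%, 7.15% and 5.85% of the members of WT muscle, ERRα3SA muscle, WT liver and ERRα3SA liver, and beyond 50 kb by 4.27%, 3.84%, 14.3% and 14.4%, with intervals that overlapped in ERRα3SA muscle alone. Several copies were rare, with 0.289%, 0.269%, 0.738% and 0.708% of members holding at least 2. Members with at least 3 copies numbered 32 over the 4 lists, in 15 host genes, and 26 of these ranked in the top 10%. Besides the arrays shown above they included *Mapkap1*, the Sin1 subunit of mTOR complex 2, whose intron 3 site ranked 50 in WT liver with 3 copies.

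Genes of mitochondrial energy supply held many peaks per length of intron. Of 56 subunits of oxidative phosphorylation, 25 hosted a member in WT muscle (44.6%), 27 in ERRα3SA muscle, 29 in WT liver and 22 in ERRα3SA liver, against 21.5%, 31.1%, 19.0% and 23.7% of all genes with an intron. Their members numbered 66.1 per Mb of unmasked intron in WT muscle (exact Poisson interval 43.9 to 95.5) and 77.9, 73.2 and 54.3 in the other lists, whereas all genes had 12.1, 23.4, 9.66 and 13.6. These genes are short, with a median of 4.91 kb of unmasked intron against 10.8 kb over all genes with an intron. Genes of like intron length were not compared. *Cox5a*, a subunit of cytochrome c oxidase, ranked 46, 75, 167 and 159 in intron 1, and *Atp5a1*, the α subunit of ATP synthase, 110, 130, 81 and 93. *Ndufs7* of complex I had its best WT muscle peak in intron 1 at rank 32, with best ranks of 2365, 8204 and 12650 in other introns in the other lists, and *Uqcrc1* of complex III had intron 1 peaks ranked 180, 153 and 120 in ERRα3SA muscle, WT liver and ERRα3SA liver. The intron 1 peaks named here lay between 183 and 689 bp from the start site, next to the promoter.

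The fuel pathways that feed the respiratory chain were hosts in both tissues. Among 28 genes of the TCA cycle and pyruvate entry, 11, 11, 16 and 17 hosted a member in WT muscle, ERRα3SA muscle, WT liver and ERRα3SA liver. These were 39.3%, 39.3%, 57.1% and 60.7% of the list, against 21.5%, 31.1%, 19.0% and 23.7% of all genes. *Pdk2*, the kinase that restrains pyruvate dehydrogenase, ranked 98 and 73 in intron 1 in muscle and 1644 and 964 in liver. *Idh3a*, of the NAD-linked isocitrate dehydrogenase, ranked 159, 117 and 47 in intron 1 in WT muscle, ERRα3SA muscle and WT liver. *Fh1*, the fumarase, had its best muscle peak in intron 1 and its best liver peak in intron 9, 23318 and 23330 bp from the TSS and ranked 57 and 93. Of 32 genes of fatty acid uptake and oxidation, 12, 17, 15 and 17 were hosts, or 37.5%, 53.1%, 46.9% and 53.1%. *Etfa*, the electron transfer flavoprotein of β-oxidation, ranked 146, 157, 194 and 2298, and *Hadh*, the hydroxyacyl-CoA dehydrogenase, 460, 310, 563 and 788 in intron 3. *Cpt1a*, the liver isoform of carnitine palmitoyltransferase, ranked 2872, 1773, 1107 and 895 in intron 1.

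Glycolytic genes were also above all genes in members per Mb. Of 35 genes of glycolysis and gluconeogenesis, 19, 26, 20 and 22 hosted a member in WT muscle, ERRα3SA muscle, WT liver and ERRα3SA liver. These were 54.3%, 74.3%, 57.1% and 62.9% of the list, against 21.5%, 31.1%, 19.0% and 23.7% of all genes with an intron. Per Mb of unmasked intron they held 69.1, 93.9, 51.4 and 69.1 members, against 12.1, 23.4, 9.66 and 13.6 over all genes. *Gapdh* ranked 70, 55, 127 and 190 in intron 2, and *Gys1*, the muscle glycogen synthase, ranked 42 and 45 in muscle against 5512 and 13000 in liver. *Ldhb*, the lactate dehydrogenase subunit that favours lactate oxidation, had intron 1 members at rank 3863 in WT muscle, 32824 in ERRα3SA muscle and 1262 in ERRα3SA liver. These ranks were the top 15.2%, 64.8% and 4.35% of their lists. Rank 32824 is shared by the 17824 ERRα3SA muscle peaks tied at the lowest score.

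Genes of muscle contraction were hosts in all 4 lists. Of 36 genes of the sarcomere and fibre type, 15 and 20 hosted a member in WT and ERRα3SA muscle (41.7% and 55.6%) and 8 and 12 in WT and ERRα3SA liver (22.2% and 33.3%), against 21.5% and 31.1% of all genes in muscle and 19.0% and 23.7% in liver. Per Mb of unmasked intron they held 10.1 and 23.6 members in WT and ERRα3SA muscle, against 12.1 and 23.4 over all genes. In liver they held 4.22 and 7.60, below the 9.66 and 13.6 of all genes. *Mylpf*, the fast regulatory myosin light chain, had 1 member, in ERRα3SA muscle at rank 321. *Actn2*, the Z-disc α-actinin, had 3 and 4 members in muscle, the best ranked 922 and 557, and *Actn3*, its fast-fibre relative, had 6 in ERRα3SA muscle and 1 in each other list. *Tnni1*, slow troponin I, had members in ERRα3SA muscle (best rank 1233) and both liver lists but none in WT muscle, and *Myom1*, an M-band protein, had its best rank, 826, in ERRα3SA liver. Of 30 genes of muscle calcium handling 18 and 18 were hosts in muscle (60% in each list) and 10 and 17 in liver (33.3% and 56.7%). They held 23.8 and 33.3 members per Mb in WT and ERRα3SA muscle and 9.95 and 16.4 in liver. Their median unmasked intron length was 46.5 kb, against 10.8 kb over all genes with an intron. *Ryr1*, the calcium release channel, ranked 124 and 136 in intron 24, with 2 elements in each window, and *Nfatc2*, a calcineurin-responsive factor, had 10 members in each muscle list, the best at ranks 39 and 48. *Camk2b* ranked 160 and 126 in muscle and 605 and 488 in liver, and *Itpr1*, the inositol trisphosphate receptor, ranked best in ERRα3SA liver at 1143.

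Growth and fate factors of muscle were hosts in 16 of 24 cases in WT muscle, 14 in ERRα3SA muscle, 9 in WT liver and 10 in ERRα3SA liver. These were 66.7%, 58.3%, 37.5% and 41.7%, against 21.5%, 31.1%, 19.0% and 23.7% of all genes. The median unmasked intron length of this list was 38.3 kb, against 10.8 kb over all genes with an intron. *Foxo1*, a factor of atrophy and fasting, held an element in its intron 1 peak in all 4 lists, at ranks 1186, 818, 3204 and 3413, and *Foxo3*, its relative, held one in intron 2 in muscle, at ranks 1186 and 439. *Eya4*, a cofactor of homeobox proteins, ranked 430 and 516 in muscle. *Igf1*, the circulating growth factor made in liver, ranked best in ERRα3SA liver at 1205, and *Mef2d* had 4 or 5 members in each list. Of 31 genes of liver synthesis and secretion with an intron, 2, 5, 9 and 10 were hosts in WT muscle, ERRα3SA muscle, WT liver and ERRα3SA liver. These shares, 6.45% and 16.1% in muscle and 29.03% and 32.3% in liver, were below those of all genes in muscle and above them in liver. *Cyp27a1*, of bile acid synthesis, and *Cyp2e1*, a microsomal cytochrome P450, ranked 1746 and 2091 in WT liver. *Asl* of the urea cycle ranked 11987, 16370 and 12740 in ERRα3SA muscle, WT liver and ERRα3SA liver, and *Apoa5*, of plasma triglyceride control, had 1 member in WT muscle at 9931.

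Hepatic transcription factors were hosts in 8 and 12 of 21 cases in WT and ERRα3SA muscle and 14 and 14 in liver. The shares were 38.1%, 57.1% and, in both liver lists, 66.7%, where all genes had 21.5%, 31.1%, 19.0% and 23.7%. Per Mb of unmasked intron they held 10.4 and 17.1 members in WT and ERRα3SA muscle, below the 12.1 and 23.4 of all genes. In WT and ERRα3SA liver they held 17.7 and 20.8, above the 9.66 and 13.6 of all genes. *Zbtb20* ranked 71 and 82 in intron 2 in liver, and *Mlxipl*, the glucose-sensing factor ChREBP, 3798 and 631. *Nfia*, a nuclear factor I protein, ranked higher in muscle, 66 and 163, than in liver, 2765 and 1949. *Klf9*, a glucocorticoid-responsive factor, ranked 216, 200, 269 and 302 in its single intron. Its nearest start site is that of *Mir1192*.

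Nuclear receptors, the family of ERRα, were listed together with their coregulators. Of 47 genes, 26 hosted a member in WT muscle, 32 in ERRα3SA muscle, 25 in WT liver and 31 in ERRα3SA liver, with 85, 135, 82 and 119 members. These hosts were 55.3%, 68.1%, 53.2% and 65.96% of the list, against 21.5%, 31.1%, 19.0% and 23.7% of all genes. Per Mb of unmasked intron the list held 19.9, 31.6, 19.2 and 27.9 members, against 12.1, 23.4, 9.66 and 13.6 over all genes. *Thra*, the thyroid hormone receptor α, ranked 238, 181, 320 and 108 in intron 2. *Nr1d2*, the clock repressor REV-ERBβ, ranked 301, 208, 995 and 488 in intron 1. *Ppara*, the fatty acid sensor of liver, had its best liver peaks in intron 2 at ranks 544 and 170, each with the element, and *Hnf4a*, a master factor of hepatocytes, ranked 388 and 197 in liver and 5892 and 11987 in muscle. *Esrrg*, the paralog ERRγ, was looked at after its values were seen. A site in its intron 1 ranked 519, 224, 205 and 390 in the 4 lists, and ERRα3SA muscle had 12 members in this gene against 2 in WT muscle, 4 in WT liver and 7 in ERRα3SA liver.

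Clock, insulin and vessel genes completed the lists. All genes with an intron were hosts in 21.5%, 31.1%, 19.0% and 23.7% of cases. Median unmasked intron lengths were 10.8 kb over all genes and 19.4, 32.5 and 38.3 kb for the clock, insulin and vessel genes. Of 18 clock genes 8, 11, 7 and 10 were hosts, or 44.4%, 61.1%, 38.9% and 55.6%. *Npas2*, a partner of BMAL1, ranked best in WT muscle at 862, whereas *Nfil3* and *Per2* ranked best in ERRα3SA liver at 799 and 2437, and *Hlf* ranked 6260, 2166, 4523 and 2437. Of 28 genes of insulin and AMPK signalling 15, 16, 16 and 15 were hosts, or 53.6%, 57.1%, 57.1% and 53.6%. *Tbc1d1*, which controls glucose transporter traffic, ranked 41, 26, 181 and 225 at a site in intron 2 in WT muscle, ERRα3SA muscle, WT liver and ERRα3SA liver. An intron 14 site ranked 55 in WT muscle and 15 in ERRα3SA liver, and the 4 lists held 7, 8, 3 and 6 members in the gene. *Insr*, the insulin receptor, ranked best in ERRα3SA muscle at 871, and *Irs1*, its substrate, in ERRα3SA liver at 1143. Of 20 angiogenic genes 10, 14, 9 and 11 were hosts, or 50%, 70%, 45% and 55%. *Vegfa*, the endothelial growth factor, ranked 257, 151, 563 and 623 in intron 1. *Pecam1* and *Epas1*, of endothelium and hypoxia response, had best ranks of 1011 and 1467 in ERRα3SA muscle, and *Nrp2*, a VEGF coreceptor, 1205 in ERRα3SA liver.

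Some loci of interest in ERRα3SA muscle had only weak or few intronic peaks. *Ppargc1a*, the gene of PGC-1α, hosted 1 member, in intron 2 in ERRα3SA muscle at chr5:51545371-51545847, tied at rank 11987. *Slc16a1*, the lactate transporter MCT1, hosted 1 in intron 1 in ERRα3SA muscle at rank 617 and 1 in WT liver at 2091. *Acadl*, the long-chain acyl-CoA dehydrogenase, had intron 1 members at rank 16894 in WT muscle and 11987 in ERRα3SA muscle. *Acsl1*, which activates fatty acids, had 2, 3, 3 and 3 members, the best at 1899 in ERRα3SA muscle, and *Tnnc1*, slow troponin C, 1 in ERRα3SA muscle at 11987. *Fabp3*, the muscle fatty acid binding protein, had 1 in intron 2 in WT muscle at rank 460. *Pank1*, a kinase of coenzyme A synthesis, had members in liver only, 1 in each list, and *Pdk4* had none. These counts are of intronic peaks alone, and promoter, exon or intergenic peaks of the same genes are not among them.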

How the data were processed

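ERRα ChIP-seq peaks were measured in muscle and liver of WT and ERRα3SA mice, with 1 library per group. The authors' steps were read trimming (Trimmomatic 0.36), alignment to the mm10 build (BWA 0.7.12), a mapping quality over 20 and duplicate removal (Picard 2.0.1). They called peaks against input with MACS2 2.1.1.20160309, kept a false discovery rate below 0.001 and annotated them with HOMER 4.9.1 (versions per the submitters' processing notes). GEO's labels give 3 pooled ChIPs per library and the methods 4. The deposited values are a peak score, the CpG and GC fraction of each interval, and other columns (coordinates, distance and annotation). Sequencing depth is not given in the sources used here, so no test was made.

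Members were rows annotated as intron with no repeat in the detailed annotation. Members and gene lists were chosen with earlier results of these data known. Hosts were taken from the transcript in the annotation: 41841 of 42037 members by RefSeq, 186 by the pairing within the lists and 10 unmatched. Partners were peaks with centres within 300 bp. TCAAGGTCA was searched on both strands of the central 300 bp of GRCm38.p6, whose GC fraction equalled the deposited one for 25426 of 25427, 50645 of 50647, 21811 of 21813 and 29037 of 29040 peaks. Gene models, intron lengths and sequences were those of RefSeq. Shares carry 95% Wilson intervals, counts per Mb exact Poisson intervals, and ratios Wilson intervals of the share in the sum. These cover counting error only. Peaks tied at the limit of equal list length were taken in genome order. Named genes were, per list, the 5 hosts of the highest-scoring members and the 5 with the most members, the 8 hosts ranking best over the 4 lists, the 3 best-ranked of each of 13 gene lists in muscle and in liver, and 9 loci the study shows. *Cep152*, *Vash2*, *Mapkap1* and *Esrrg* were named after their values were seen. Genes chosen by the rule that are not named are not reported here. Alternatives were other score limits, list lengths, partner distances, motifs and repeat rules. Scripts were tested on simulated data. The versions were samtools 1.23.1, pysam 0.24.0, scipy 1.17.1, matplotlib 3.10.9, pandas 2.3.3, numpy 2.4.6 and Python 3.11.15.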

Additional observations from a re-analysis of the deposited data

Results flagged for a closer look

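For 6 measures the difference between ERRα3SA and WT took opposite signs in the tissues. Each rests on 1 library per group, so the difference between tissues was not tested. The share of a list that is intronic outside repeats differed by -1.05 percentage points for muscle and 1.88 for liver. The fraction of intronic peaks in intron 1 differed by -5.58 points in muscle and 0.718 for liver. For CpG islands the differences were -3.73 and 0.633 points, and for peaks up to 1 kb from a TSS -4.97 and 0.790 points. The share within 20 kb of a TSS differed by -3.75 and 2.53 points, and the share whose host has the nearest TSS by -1.82 and 0.490 points. In liver the intervals of the genotypes overlapped for 4 of the 6 measures (intron 1, CpG islands, up to 1 kb, and the host with the nearest TSS). Whether these liver differences exceed counting error was not tested.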

How the results depend on the processing

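Of 82 alternatives to 22 values, 23 stayed within the counting interval or within 1.5 times a count, 58 moved beyond it and 1 changed direction. The cause was not tested. No paired analysis was possible because each group is 1 library. For the same reason no replicate could be left out, and depth, which is unknown, limits every count near the score floor.

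The ratio of ERRα3SA to WT numbers became 2.35 in muscle and 1.56 in liver at scores of at least 100, 2.00 and 1.36 with repeats included, and 1.80 and 1.47 within 20 kb of a TSS. With lists of equal length it was 0.970 in muscle, the value that changed direction, and 1.06 in liver. The share of ERRα3SA peaks with a WT partner was 5.89% in muscle and 19.3% in liver for centres within 100 bp, 16.5% and 39.4% within 1000 bp, 14.5% and 37.4% for intervals sharing a base, and 33.7% and 50.7% at scores of at least 100 in both lists. With repeats included it was 10.7% in muscle. The share of muscle peaks with a liver partner was, for WT and ERRα3SA, 6.11% and 6.16% within 100 bp, 17.0% and 18.01% within 1000 bp, 15.5% and 15.9% for a shared base, and 43.1% and 42.4% at scores of at least 100.

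In the order WT muscle, ERRα3SA muscle, WT liver and ERRα3SA liver, hosts of 2 or more members numbered 36, 114, 157 and 306 at scores of at least 100, and 1707 in ERRα3SA muscle cut to equal length. Intron 1 held 51.2%, 45.6%, 46.1% and 43.7% at scores of at least 100, and 35.8% in WT muscle with repeats included. By alternatives chosen after seeing the data it held 24.3%, 22.2%, 26.7% and 26.8% more than 5 kb from a TSS and 32.7%, 29.3%, 36.7% and 37.0% without CpG islands. The top 1% of a list held 1.17%, 1.12%, 1.17% and 0.933% of the members. The element was found in 6.31%, 6.29%, 17.8% and 18.4% as TNAAGGTCA, in 7.03%, 7.24%, 18.4% and 17.99% over whole intervals, and in 17.2%, 16.7%, 23.0% and 19.95% at scores of at least 100.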

Other observations

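*Chchd10*, the gene of a mitochondrial intermembrane space protein, hosted 1 member in WT muscle, in intron 1 at rank 26, and 1 in ERRα3SA muscle, in intron 2 at rank 31, and none in the liver lists. It was chosen after its values were seen. Of 3416 genes that hosted a member in both muscle lists, 879 hosted none in liver. Of 2979 that hosted a member in both liver lists, 480 hosted none in muscle. Of all genes with an intron, 21.5% and 31.1% hosted a member in WT and ERRα3SA muscle, and 19.0% and 23.7% in WT and ERRα3SA liver. Most genes thus had no member in a given list, and whether 879 or 480 departs from these shares was not tested. These numbers do not mark genes as bound in 1 tissue alone. The lists differed in length, with 8659 and 16714 members in muscle against 6914 and 9750 in liver.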
